A study of Homo sapiens with 2 samples.

Results

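Heart muscle identity is set by a small group of DNA-binding proteins and 1 powerful cofactor. The 10 genes described here encode members of that core: the homeobox factor NKX2-5 and its small homeodomain-only relative HOPX, the zinc finger factors GATA4, GATA5 and GATA6, the MADS-box factors MEF2A and MEF2C, the basic helix-loop-helix factors HAND1 and HAND2, and the coactivator MYOCD (myocardin). They were picked by a list of gene symbols, drawn up with earlier results of these data known, and are 10 of the 36601 genes in the count matrix; each symbol matched 1 gene.

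As background, these factors bind the promoters and enhancers of contractile and ion channel genes together, and several of them bind each other's regulatory regions. NKX2-5, GATA4 and MEF2C act early in the heart field, HAND1 and HAND2 pattern the left and right ventricular primordia in the mouse, and MYOCD drives both cardiac and smooth muscle genes through serum response factor. None of the families is limited to heart muscle. GATA4 and GATA6 also act in endoderm, MEF2C acts in endothelium, and HOPX, which lacks DNA contact residues and works as a cofactor, is also found outside the heart.

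The data come from 1 pool of cells grown from H9, a human embryonic stem cell line, that carry the fluorescent calcium reporter gCaMP6f in every sample. Cells were differentiated to day 15 towards cardiomyocytes, frozen, thawed, tagged with hashtag antibodies and pooled, and a gene expression library and a hashtag library were made from the same droplets. After filtering, 20757 cells remained, with a median of 12018 unique molecular identifiers (UMIs, counted RNA molecules) and 3444 genes per cell. A single hashtag could be given to 10037 cells (48.4%), and 13 hashtags were present. The labels do not say what a hashtag marks, so hashtags are treated as unassigned samples. With 1 pool there are no replicates and no test was made: levels are CPM (UMIs of a gene scaled to a common UMI total per group), and every interval is an exact 95% interval that covers counting error only.

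Cells were clustered without the 10 genes or the related factors and the clusters were named from marker genes. Cardiomyocyte-like cells numbered 15942 (76.8%, 76.2 to 77.4) with 12 heart muscle markers summing to 43053 CPM. The other classes compared with them were 1566 stromal-like cells (COL3A1 at 1157 CPM), 777 epithelial-like cells (CLDN4 at 214 CPM), 356 endoderm-like cells (AFP at 4976 CPM), 254 epicardial-like cells (WT1 at 134 CPM) and 68 endothelial-like cells (CDH5 at 255 CPM). The same 12 heart muscle markers stood at a median of 20.9%, 9.92%, 25.3%, 10.6% and 9.60% of their cardiomyocyte-like level in these classes, in that order. The source of those counts was not tested, and a member at or below such a share is not read as expressed in that class. A cluster of 163 cells that the marker lists did not name and a low-depth cluster of 1631 cells (median 2043 UMIs) were left out of all comparisons. Their 12 heart muscle markers summed to 34508 CPM and 40662 CPM, so both were rich in these markers. The cardiomyocyte-like share of 76.8% does not count them.

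Promoter windows of 250 bases upstream of annotated start sites (RefSeq, GRCh38.p14) matched 6 of the 10 genes, with 15 windows in all. The windows of HAND1 and HAND2 are shown because the levels of these genes were lowest in the same cardiomyocyte-like cells, as described further on. The HAND1 window lies at chr5:154478228-154478477 and the HAND2 window at chr4:173530230-173530479, both on the minus strand and written 5′ to 3′. Capitals mark the GATA core GATAA on either strand, which reads TTATC on the other strand.
HAND1: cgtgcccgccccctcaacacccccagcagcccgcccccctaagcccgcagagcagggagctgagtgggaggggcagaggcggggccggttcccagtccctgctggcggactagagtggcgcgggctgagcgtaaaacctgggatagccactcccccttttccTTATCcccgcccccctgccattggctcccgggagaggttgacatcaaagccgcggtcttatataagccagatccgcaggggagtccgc
HAND2: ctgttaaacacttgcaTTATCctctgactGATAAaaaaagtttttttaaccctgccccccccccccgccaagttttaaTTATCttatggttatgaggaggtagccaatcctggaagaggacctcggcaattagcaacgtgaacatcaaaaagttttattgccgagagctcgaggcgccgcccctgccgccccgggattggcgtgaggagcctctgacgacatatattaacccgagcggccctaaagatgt
The HAND1 window held 1 GATA core and the HAND2 window 3, against a share of 20.4% of 35116 promoter windows of the same length with at least 1. The HAND2 window also held 1 E-box (CANNTG, the motif of basic helix-loop-helix factors), present in 61.8% of windows. It held 1 NKX2-5 core (AAGTG on either strand), present in 37.6%. Both matches fall on the same letters, CACTTG, so they are not separate sites. The HAND1 window held neither motif. These matches describe letters, not bound sites.

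Which of the factors were detected in the cardiomyocyte-like cells, and how widely? NKX2-5 (ENSG00000183072, chr5:173232109-173235357, GRCh38), the homeobox gene needed for early heart growth, stood at 595 CPM (592 to 598). After every cell was thinned to 3000 UMIs, 77.7% of 15502 cells (77.1 to 78.4) held an NKX2-5 UMI, against 96.3% unthinned at a median of 12978 UMIs. In epicardial-like cells, where the NKX2-5 level was below that of the heart muscle markers, the thinned share was 4.45% (2.24 to 7.83) and the unthinned share 18.1% at a median of 12792.5 UMIs. In endothelial-like cells it was 15.2% (7.51 to 26.1) thinned and 44.1% unthinned at a median of 10973.5 UMIs. HOPX (ENSG00000171476, chr4:56647988-56681899) was sparse, at 8.72 CPM (8.36 to 9.10), with a UMI in 2.10% of thinned cells and 7.38% unthinned. The thinned share of HOPX was 0.274% in epithelial-like cells (2 of 731 cells; 2.70% unthinned at a median of 13478 UMIs).

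Of the zinc finger genes, GATA4 (ENSG00000136574, chr8:11676959-11760002) stood at 98.8 CPM (97.6 to 100.1) in cardiomyocyte-like cells. GATA6 (ENSG00000141448, chr18:22169443-22202528) stood at 129.6 CPM (128 to 131). GATA5 (ENSG00000130700, chr20:62463497-62475970), a factor of endocardial and early heart cells, stood at 26.5 CPM (25.8 to 27.1). The MADS-box genes MEF2A (ENSG00000068305, chr15:99565417-99716466) and MEF2C (ENSG00000081189, chr5:88717117-88904257) stood at 185 CPM (183 to 186) and 86.5 CPM (85.4 to 87.7). HAND1 (ENSG00000113196, chr5:154474972-154478264) stood at 133 CPM (131 to 134), HAND2 (ENSG00000164107, chr4:173524969-173530229) at 203 CPM (202 to 205) and MYOCD (ENSG00000141052, chr17:12665890-12768949) at 111 CPM (109.9 to 112.6). These levels are not set against one another, because counts depend on the transcript as well as its abundance. The strand setting of the counting is not given in the sources used here, so reads of HAND2 and HAND2-AS1, GATA6 and GATA6-AS1, MEF2C and MEF2C-AS1, and MEF2A and LYSMD4 cannot be told apart where the genes overlap. HAND2-AS1 had 51593 UMIs and GATA6-AS1 55103 UMIs over all cells, against 56191 and 35983 for HAND2 and GATA6 themselves.

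**Figure D1:**
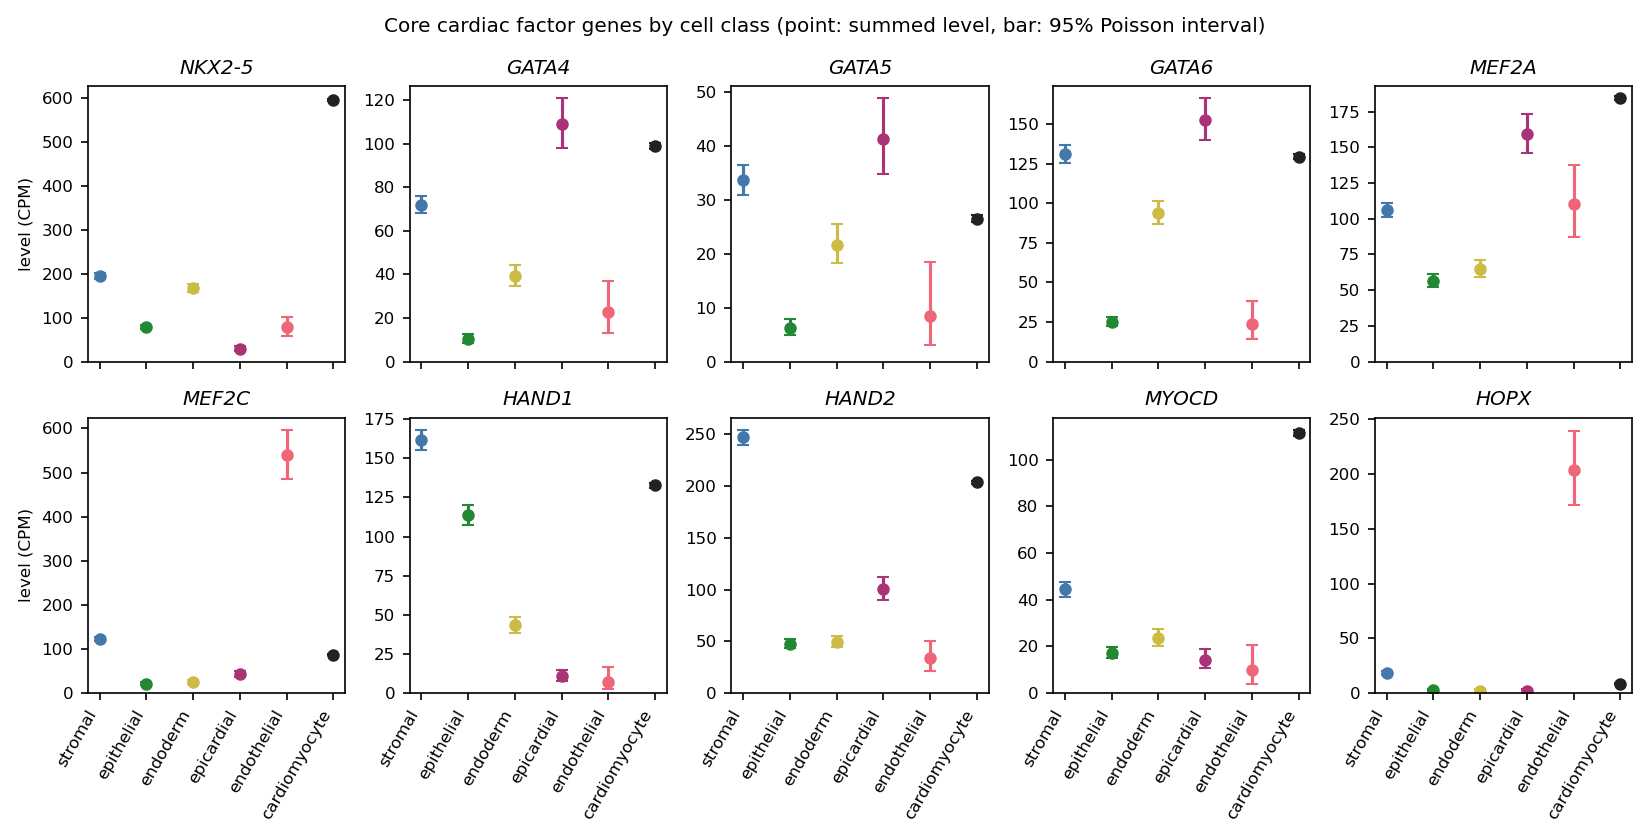
Level of each of the 10 genes (CPM, y axis starting at 0, 1 panel per gene) in the 5 other named classes and, rightmost, in cardiomyocyte-like cells; points are sums over all cells of a class and bars exact 95% Poisson intervals. NKX2-5 and MYOCD are highest in cardiomyocyte-like cells, while MEF2C (539 CPM) and HOPX (204 CPM) are highest in endothelial-like cells.

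Cardiomyocyte-like cells were first set against the 3021 cells of the other classes together. Calls needed a ratio of at least 1.5 in either direction, with 10 CPM and 10 counts or more on the higher side. NKX2-5, at 595 CPM against 140.1 CPM, was 4.24-fold higher (4.13 to 4.36). MYOCD, at 111 CPM against 29.8 CPM, was 3.73-fold higher (3.52 to 3.96), MEF2A was 2.07-fold higher (2.00 to 2.14) and GATA4 1.95-fold higher (1.86 to 2.04). Thus 4 of 10 genes were higher and 0 lower, where 12.6% of 9437 measured genes were higher and 24.7% lower (37.3% either way). The other 6 genes lay within 1.5-fold, among them HAND2 at a ratio of 1.47 (1.43 to 1.51), GATA6 at 1.38, HAND1 at 1.19 and HOPX at 0.679 (0.616 to 0.750). NKX2-5, MEF2A and MYOCD were higher in cardiomyocyte-like cells within 12 of 12 hashtags with enough cells on both sides, GATA4 in 9 of 12 and HAND1 in 6 of 12. The median log2 ratio of the 10 genes was 0.51, against -0.18 over all measured genes.

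That comparison depends on the scaling. With trimmed mean (TMM) scaling the log2 ratio over all genes had a median of 0.24, in place of -0.18, and 2612 genes were called higher and 1064 lower, in place of 1186 and 2330. With it GATA6 (1.80), HAND1 (1.56) and HAND2 (1.92) also passed 1.5-fold, giving 7 of 10. For the classes one by one, TMM shifted log2 ratios against cardiomyocyte-like cells by -0.40 (stromal-like), -0.35 (epithelial-like), -0.20 (endoderm-like), -0.17 (epicardial-like) and -0.18 (endothelial-like).

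Endothelial-like cells stood apart by HOPX and MEF2C. HOPX was at 204 CPM (172 to 240) in the endothelial-like class and 8.72 CPM in the cardiomyocyte-like class, 23.3-fold higher (19.6 to 27.7). MEF2C, which in mice is required in both heart and vessel wall, was at 539 CPM (486 to 596) in the endothelial-like class and 86.5 CPM in the cardiomyocyte-like class, 6.23-fold higher (5.61 to 6.89). In thinned cells 39.4% of 66 endothelial-like cells (27.6 to 52.2) held a HOPX UMI, against 2.10% of cardiomyocyte-like cells, and 74.2% (62.0 to 84.2) held a MEF2C UMI, against 22.5%. The other MADS-box gene went the other way, with MEF2A at 110.3 CPM against 185 CPM, 1.67-fold lower (1.34 to 2.12). That call was lost with a 2-fold threshold, with cells of 1 hashtag only (a ratio of 0.748) and with called doublets kept (0.669).

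All the remaining genes were lower in endothelial-like cells, for 2 genes higher and 8 lower of 10 (7 lower in the settings that lost MEF2A), where 25.1% of 8896 measured genes were higher and 28.6% lower (53.7% either way). NKX2-5 was at 77.8 CPM against 595 CPM, which is 13.1% of the cardiomyocyte-like level, GATA6 at 24.0 CPM against 129.6 CPM (18.6%) and GATA4 at 22.6 CPM against 98.8 CPM (22.9%). HAND1 had 5 counts and MYOCD 7 counts in the whole class, at 5.33% and 8.90% of their cardiomyocyte-like levels. Those shares lie below the 9.60% median of the heart muscle markers there. With called doublets kept the ratios were 0.194 for HAND1, 0.188 for MYOCD and 0.248 for NKX2-5, and with cells of 1 hashtag only they were 0.116 for HAND1 and 0.0570 for GATA6. Only 26 of the 68 cells carried a single hashtag, at most 7 of them the same, so HOPX and MEF2C could not be followed within hashtags in this class. With cells of 1 hashtag only, HOPX was 24.3-fold and MEF2C 6.87-fold higher.

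Factors of the endothelial lineage are given for context. Of 10 listed endothelial factor genes 8 were measured, and all 8 were higher in endothelial-like cells. Among them were SOX18 (189.5 CPM against 0.0705 CPM) and ERG (72.1 CPM against 0.0290 CPM). ERG was also among the markers that named the class. Genes as low as these in cardiomyocyte-like cells pass the minimum level only where the other class is high. The count of 8 therefore follows largely from that filter and is no support for the class. In the stromal-like comparison 1 gene of the list was measured. Of 6 measured relatives of the core families 2 were higher, GATA2, a zinc finger factor of blood and endothelium (24.0 CPM against 1.18 CPM), and GATA3 (14.1 CPM against 1.54 CPM). Both passed the minimum level only through this class. Target genes of the core factors, which include NPPA, PLN and CSRP3, were lower in 24 and higher in 1 of 25, the gap junction gene GJA1 (3.19-fold). Several of these targets were also among the heart muscle markers that named the classes.

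Did endoderm-like cells keep the GATA factors? GATA6 and GATA5 were the members closest to their cardiomyocyte-like levels there. GATA6 was at 94.2 CPM in the endoderm-like class and 129.6 CPM in the cardiomyocyte-like class, a ratio of 0.727 (0.671 to 0.786). GATA5 was at 21.7 CPM against 26.5 CPM, a ratio of 0.820 (0.692 to 0.965). GATA4 was at 39.2 CPM against 98.8 CPM, 2.52-fold lower (2.24 to 2.86). Of 9 measured members 0 were higher and 7 lower, where 20.2% of 9252 measured genes were higher and 16.8% lower (37% either way); GATA6 joined the lower genes with TMM scaling, and both GATA6 and GATA5 did so with the strict cell filter.

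Within hashtags the members were spread more widely than over the whole class. In the 3 hashtags with at least 20 endoderm-like cells, the ratio to cardiomyocyte-like cells of the same hashtag was 0.674 to 0.808 for GATA6, 0.654 to 1.29 for GATA5 and 0.247 to 0.325 for GATA4. MEF2A overlapped GATA4 at 0.139 to 0.328. The same ratio was 0.0440 to 0.145 for MEF2C, 0.0438 to 0.178 for NKX2-5, 0.0475 to 0.0519 for HAND2, 0.0495 to 0.103 for HAND1 and 0.0353 to 0.120 for MYOCD. HOPX was below the minimum level over the class. It had 0 counts in the endoderm-like cells of Hashtag5 and Hashtag12 and 1 count in Hashtag7, so no ratio is given for it. Over all endoderm-like cells NKX2-5 stood at 167 CPM and HAND2 at 49.1 CPM, or 28.0% and 24.2% of their cardiomyocyte-like levels, close to the 25.3% median of the heart muscle markers. Without a cell filter the NKX2-5 ratio was 0.0966, against 0.280. With cells of 1 hashtag only the ratios were 0.0971 for NKX2-5, 0.223 for GATA4, 0.155 for MEF2C and 0.114 for MYOCD, against 0.280, 0.396, 0.285 and 0.212. In thinned cells 23.7% of 334 endoderm-like cells held a GATA6 UMI, against 31.9% of cardiomyocyte-like cells and 4.55% of endothelial-like cells. Of 8 measured endoderm factors, 7 were higher and 0 lower. Among the 7 were HNF4A, the nuclear receptor of liver cells (32.3 CPM against 0.0705 CPM), and HHEX (144 CPM against 0.352 CPM). HNF4A was also a marker of the class. Genes this low in cardiomyocyte-like cells pass the minimum level only through the endoderm-like class, so this count follows largely from the filter.

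Epicardial-like cells held all 3 GATA genes near the cardiomyocyte-like level and had little NKX2-5 and HAND1. GATA5 was at 41.3 CPM (34.7 to 48.8) in the epicardial-like class and 26.5 CPM in the cardiomyocyte-like class, 1.56-fold higher (1.31 to 1.85). GATA4 was at 109 CPM against 98.8 CPM, a ratio of 1.10 (0.992 to 1.22), and GATA6 at 153 CPM against 129.6 CPM, a ratio of 1.18 (1.08 to 1.29). The GATA5 call rests on a value close to the threshold: with TMM scaling or with cells of 1 hashtag only it was within 1.5-fold (1.22 with 1 hashtag only), and the GATA4 ratio was 0.978 with TMM.

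Most of the other members were lower. NKX2-5 was at 28.8 CPM (23.3 to 35.1) in the epicardial-like class and 595 CPM in the cardiomyocyte-like class, 20.7-fold lower (16.9 to 25.5). HAND1 was at 10.8 CPM against 133 CPM, 12.3-fold lower (8.89 to 17.6), while HAND2 was at 100.6 CPM against 203 CPM, 2.02-fold lower (1.82 to 2.26). MYOCD was 7.74-fold lower (5.83 to 10.5) and MEF2C 1.99-fold lower (1.69 to 2.36), and MEF2A was within 1.5-fold at 0.862. That makes 1 higher and 5 lower of 9 measured, where 21.9% of 9198 genes were higher and 20.9% lower (42.8% either way). NKX2-5 (4.84%) and HAND1 (8.13%) were below the 10.6% median of the heart muscle markers there, and the HAND2 share (49.5%) was above it. In the 1 hashtag with enough cells, Hashtag8, NKX2-5 had 1 count and a ratio of 0.00545, HAND1 had 2 counts and a ratio of 0.0401, and HAND2 had a ratio of 0.455. With called doublets kept, the class ratios were 0.286 for NKX2-5, 0.323 for HAND1 and 0.285 for MYOCD, still in the same direction but nearer to 1. The epicardial T-box gene TBX18, which was among the naming markers, was at 226 CPM against 8.50 CPM.

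**Figure D2:**
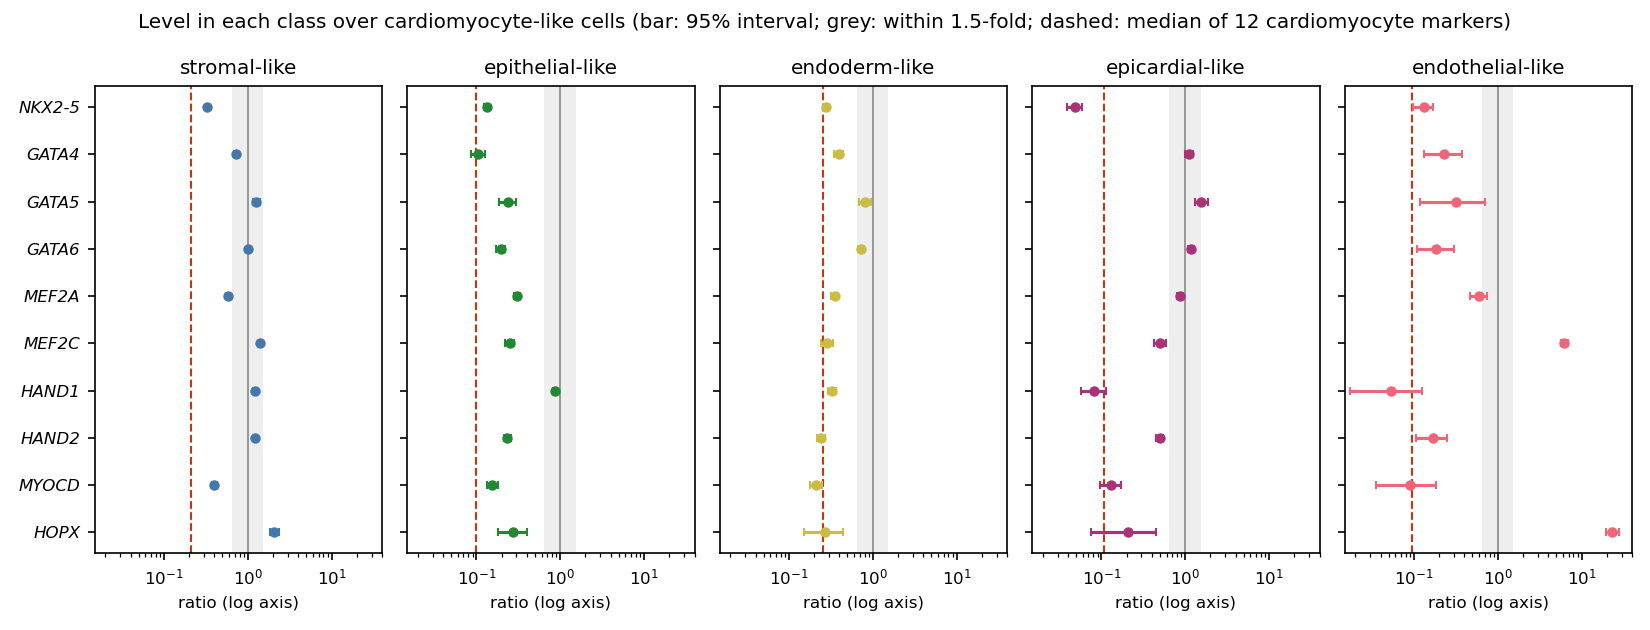
Level of each gene in the 5 other named classes divided by its level in cardiomyocyte-like cells (log axis), with exact 95% intervals; grey marks ratios within 1.5-fold and the red dashed line the median of the 12 heart muscle markers in that class. HOPX (23.3) and MEF2C (6.23) stand out in endothelial-like cells. The points of the 3 GATA genes, MEF2A, MEF2C and HOPX lie above the dashed line in all 5 classes. GATA4 in epithelial-like cells (10.6% against 9.92%) has an interval that crosses it. MEF2C (0.285) and HOPX (0.269) are close to the line in endoderm-like cells. HOPX was below the minimum level in epithelial-like, endoderm-like and epicardial-like cells.

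In stromal-like cells 4 of the 10 genes were past 1.5-fold, 1 higher and 3 lower, where 36.6% of 9383 measured genes were, so the number of members called was near that over all genes. HAND2 was at 247 CPM in the stromal-like class and 203 CPM in the cardiomyocyte-like class, a ratio of 1.21 (1.17 to 1.25). HAND1 (1.22), GATA6 (1.01), GATA5 (1.27) and MEF2C (1.42, 1.35 to 1.48) were also within 1.5-fold, and GATA4 had a ratio of 0.728. With TMM scaling the ratios of HAND2, HAND1, GATA6 and GATA5 turned to 0.922, 0.925, 0.769 and 0.965, so no direction is given for these genes. NKX2-5 was at 195 CPM against 595 CPM, 3.05-fold lower (2.95 to 3.16), MYOCD at 44.5 CPM against 111 CPM, 2.50-fold lower (2.33 to 2.69), and MEF2A at 106 CPM against 185 CPM, 1.74-fold lower (1.66 to 1.83). HOPX was at 18.2 CPM against 8.72 CPM, 2.09-fold higher (1.84 to 2.35). Of all measured genes 25.2% were higher and 11.5% lower; with TMM scaling the split over all genes was 1056 higher and 2374 lower, against 2362 higher and 1076 lower, and GATA4 joined the lower genes.

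Within hashtags NKX2-5 and MEF2A were lower in stromal-like cells in 12 of 12 and MYOCD in 11 of 12. HOPX was uneven there, from 0 CPM in Hashtag4 to 56.0 CPM in Hashtag12 with a median of 5.15 CPM, and was higher than in cardiomyocyte-like cells in 6 of 12 hashtags. HAND1 in stromal-like cells ran from 34.9 CPM in Hashtag5 to 392 CPM in Hashtag7, and its ratio to cardiomyocyte-like cells of the same hashtag from 0.264 to 3.09, so the class ratio of 1.22 averages unlike hashtags. Thus the HOPX call and the HAND1 level of this class came from some hashtags and not from others. Of 32 measured genes on a list of other cardiac factors, 13 were higher and 9 lower, with PRRX1, a mesenchymal homeobox gene (53.8 CPM against 0.962 CPM), and ISL1, a second heart field gene (95.4 CPM against 5.31 CPM), higher and the ventricular genes IRX4 (7.24-fold) and HEY2 (6.14-fold) lower. Target genes were lower in 23 and higher in 1 of 25.

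In epithelial-like cells every measured member apart from HAND1 was lower. HAND1 was at 114 CPM in the epithelial-like class and 133 CPM in the cardiomyocyte-like class, a ratio of 0.856 (0.809 to 0.906). GATA4 was at 10.4 CPM against 98.8 CPM, 9.47-fold lower (7.90 to 11.5), NKX2-5 was 7.57-fold lower (7.08 to 8.10), MYOCD 6.43-fold, GATA6 5.13-fold, HAND2 4.26-fold, GATA5 4.24-fold, MEF2C 4.01-fold and MEF2A 3.26-fold lower. With called doublets kept all 8 of these stayed lower by smaller folds, 3.49 for GATA4, 3.30 for NKX2-5, 3.67 for MYOCD and 2.55 to 2.74 for the others. Of 9 measured members 0 were higher and 8 lower, where 27.1% of 9463 measured genes were higher and 18.4% lower (45.5% either way). HAND1 was unequal over the 3 hashtags with enough cells, at 39.7 CPM in Hashtag2, 58.6 CPM in Hashtag1 and 218 CPM in Hashtag7, and its ratio to cardiomyocyte-like cells of the same hashtag was 0.731 to 1.71. The zinc finger relative GATA3, an epithelial and trophoblast factor, was at 83.4 CPM against 1.54 CPM, and was the 1 higher gene of 6 measured relatives. GATA3 passed the minimum level only through this class. Splits over all genes with TMM scaling were 1463 higher and 2958 lower here, 1277 and 2247 in endoderm-like, 1519 and 2547 in epicardial-like and 1816 and 3160 in endothelial-like cells. Without it they were 2565 and 1740, 1872 and 1551, 2014 and 1922, and 2230 and 2547, in the same order.

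Cardiomyocyte subtypes were then defined by marker genes within the cardiomyocyte-like cells. SHOX2-positive cells (355, at least 1 UMI of SHOX2, a sinus node homeobox gene) stand for a pacemaker-type program. NR2F2-positive cells (1904, at least 2 UMIs of the atrial factor NR2F2 and none of SHOX2) and HEY2-positive cells (6597, at least 2 UMIs of the ventricular factor HEY2 and none of the other markers) stand for atrial-type and ventricular-type programs. Cycling cells (2302) had at least 5 UMIs over 8 division genes. Gates of this kind depend on depth: 156 of the 355 SHOX2-positive cells had exactly 1 SHOX2 UMI, and 660 NR2F2-positive cells had exactly 2 NR2F2 UMIs, while 1663 more had 1. Of the HEY2-positive cells 1624 had exactly 2 HEY2 UMIs. Another 2212 cells had 1 HEY2 UMI and none of the other markers, and were counted among the other cells. The subtype gates left 7086 cardiomyocyte-like cells (44.4%) ungated. Median depth was 10678, 11018, 15925 and 21543 UMIs in the SHOX2-positive, NR2F2-positive, HEY2-positive and cycling cells.

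None of the members measured (9, 10, 9 and 9 in the SHOX2-positive, NR2F2-positive, HEY2-positive and cycling cells) passed 1.5-fold against the other cardiomyocyte-like cells, where 6.45% (SHOX2-positive), 3.68% (NR2F2-positive), 2.56% (HEY2-positive) and 6.87% (cycling) of all measured genes did. Of all measured genes, 4.75% were higher and 1.7% lower in SHOX2-positive cells, 2.72% and 0.957% in NR2F2-positive cells, 0.264% and 2.3% in HEY2-positive cells, and 5.71% and 1.17% in cycling cells. NKX2-5 and HAND1 came closest in SHOX2-positive cells. NKX2-5 was at 418 CPM in SHOX2-positive cells, against 599 CPM in the others, a ratio of 0.699 (0.670 to 0.728), and lower in 2 of 2 hashtags. HAND1 was at 89.4 CPM against 134 CPM, a ratio of 0.669 (0.610 to 0.732), and likewise lower in 2 of 2. GATA4, MYOCD and MEF2C had ratios of 1.28, 1.28 and 1.27. With the gates set in cells thinned to 6000 UMIs, which left 220 SHOX2-positive cells, the ratios were 0.606 for NKX2-5, 0.253 for HAND1, 1.57 for MEF2C and 1.59 for MYOCD, all past 1.5-fold. That is 4 of 9 measured members, where 21.9% of 8847 measured genes were past 1.5-fold with this gate (13.8% higher and 8.13% lower). With TMM scaling NKX2-5 and HAND1 also passed. With TMM the split over all genes was 307 higher and 253 lower in SHOX2-positive cells and 175 and 116 in NR2F2-positive cells, against 410 and 147 and 230 and 81 without it. Smooth muscle targets of myocardin were higher in 7 and lower in 0 of 9 in SHOX2-positive cells, led by MYH11 (40.1 CPM against 2.00 CPM) and MYLK (52.9 CPM against 4.08 CPM).

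In NR2F2-positive cells HAND1 was at 98.6 CPM, against 138 CPM in the others, a ratio of 0.715 (0.689 to 0.743), and lower in 9 of 9 hashtags. HAND2 went the other way, at 234 CPM against 199 CPM, a ratio of 1.18 (1.15 to 1.21), and higher in 9 of 9 hashtags. MYOCD had a ratio of 1.31 (1.27 to 1.35) and was higher in 8 of 9, GATA6 1.14 and higher in 9 of 9, and NKX2-5 0.923 and lower in 9 of 9. HOPX was at 12.3 CPM against 8.20 CPM, a ratio of 1.49 (1.33 to 1.67). The HOPX ratio passed 1.5-fold under several other settings but was 0.732 with the gate set in thinned cells, so its direction is not given. With the thinned gate MYOCD was higher (1.80) and HAND1 lower (0.462) in NR2F2-positive cells, 1 and 1 of 9 measured members, where 7.87% of all measured genes were higher and 3.67% lower (11.5% either way). In HEY2-positive cells that gate called 0 of 9 members, where 0.252% of genes were higher and 2.21% lower (2.46% either way). In HEY2-positive cells HAND1 was at 150.3 CPM, against 115 CPM in the others, a ratio of 1.30 (1.28 to 1.33), and higher in 13 of 13 hashtags. HAND1 was thus at 89.4 CPM in SHOX2-positive and 98.6 CPM in NR2F2-positive cells, against 150.3 CPM in HEY2-positive cells, ratios of 0.595 (0.542 to 0.651) and 0.656 (0.631 to 0.681). Smooth muscle targets of myocardin were higher in 4 and lower in 0 of 7 in NR2F2-positive cells and higher in 0 and lower in 4 of 7 in HEY2-positive cells.

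Cycling cells had MEF2A at 146 CPM, against 197 CPM in the other cardiomyocyte-like cells, a ratio of 0.743 (0.726 to 0.761). NKX2-5 was at 515 CPM against 621 CPM, a ratio of 0.830 (0.819 to 0.840). Both were lower in cycling cells in 12 of 12 hashtags. HAND2 (0.830) and MYOCD (0.837) were lower in 11 of 12, while HAND1 had a ratio of 1.19 (1.17 to 1.22) and was higher in 10 of 12.

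Clustering the cardiomyocyte-like cells again gave 10 sub-clusters, called here by number and leading genes, and this showed a wider spread than the subtype gates. HAND1 was lowest in sub-cluster 4, which is led by IRX1 and LMOD2 (1672 cells), at 39.4 CPM (36.6 to 42.4). The next lowest was sub-cluster 1, led by NR2F2, NPPA and SHOX2, at 68.4 CPM, and the highest was sub-cluster 3, led by MIR133A1HG and SLIT2, at 160.5 CPM, 4.07 times the lowest. HAND2 was also lowest in sub-cluster 4, at 89.6 CPM (85.3 to 94.1), but highest in sub-cluster 1, at 264 CPM (257 to 271). Low HAND1 thus went with low HAND2 in the IRX1-led cells and with high HAND2 in the NR2F2-led cells.

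Sub-cluster 4 was at the same time the highest for NKX2-5, at 856 CPM (843 to 870), and for MEF2A, at 257 CPM (249 to 264). Both genes were higher in sub-cluster 4 than in the other cardiomyocyte-like cells of the same hashtag in 9 of 9 hashtags with enough cells, at ratios of 1.20 to 1.77 for NKX2-5 and 1.03 to 1.86 for MEF2A. HAND1 was lower in sub-cluster 4 in 9 of 9 hashtags, at ratios of 0.189 to 0.384, and HAND2 in 9 of 9, at ratios of 0.186 to 0.686. MYOCD was higher in 5 and lower in 4 of the 9, and GATA4 likewise. In sub-cluster 1, HAND1 was lower in 10 of 10 hashtags (0.291 to 0.783) while HAND2 (1.05 to 1.55) and MYOCD (1.09 to 1.98) were higher in 10 of 10. The sub-clusters were made without the 10 genes, yet from other genes of the same cells, so these values describe them and test nothing.

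Other members reached their extremes elsewhere. Sub-cluster 8, led by KDR and ENG, had the highest GATA5 at 42.7 CPM (38.6 to 47.2) and the highest GATA6 at 191 CPM (182 to 200). Sub-cluster 1 had the highest GATA4 at 132 CPM and the highest MYOCD at 177 CPM (171 to 182). Sub-cluster 9, led by THBS1 and ATF3, had the lowest NKX2-5 at 342 CPM (331 to 353), the lowest GATA4 at 76.7 CPM and GATA5 at 12.4 CPM, and the highest HOPX at 31.8 CPM (28.5 to 35.5). HOPX had the widest relative range, 9.72-fold from its lowest level of 3.28 CPM in sub-cluster 3, and GATA4 the narrowest, 1.71-fold. MEF2C ran over 1.74-fold, from 67.7 CPM in sub-cluster 2 to 118 CPM in sub-cluster 3. The median depth of the sub-clusters ran from 8364 UMIs in sub-cluster 1 to 20964 UMIs in sub-cluster 6.

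**Figure D3:**
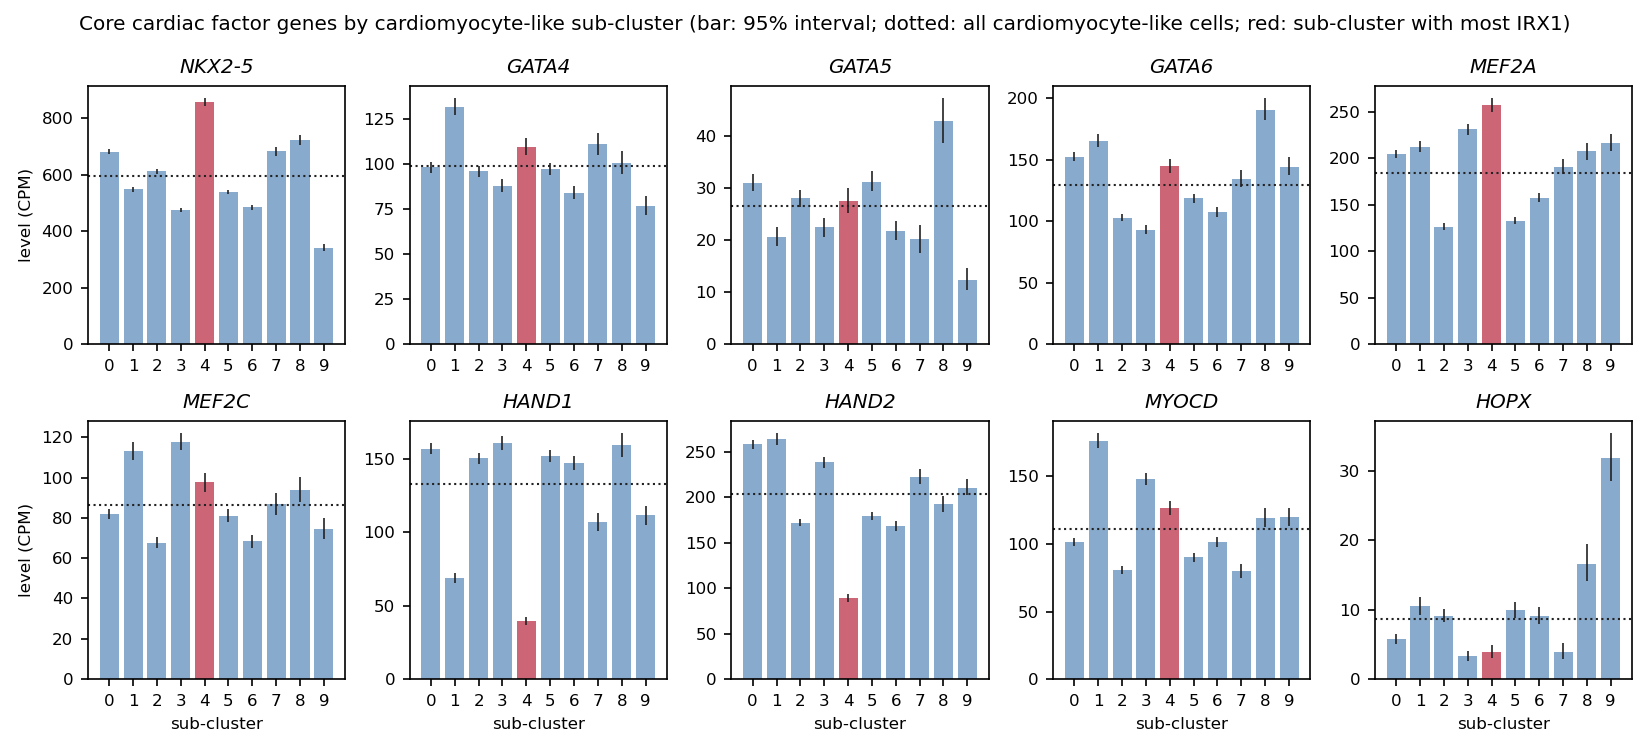
Level of each gene (CPM, y axis starting at 0) in the 10 sub-clusters of cardiomyocyte-like cells, drawn as bars with exact 95% Poisson intervals. The red bar is sub-cluster 4, which has the most IRX1, and the dotted line is the level over all cardiomyocyte-like cells. HAND1 (39.4 CPM) and HAND2 (89.6 CPM) are lowest and NKX2-5 (856 CPM) is highest in sub-cluster 4.

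**Figure D4:**
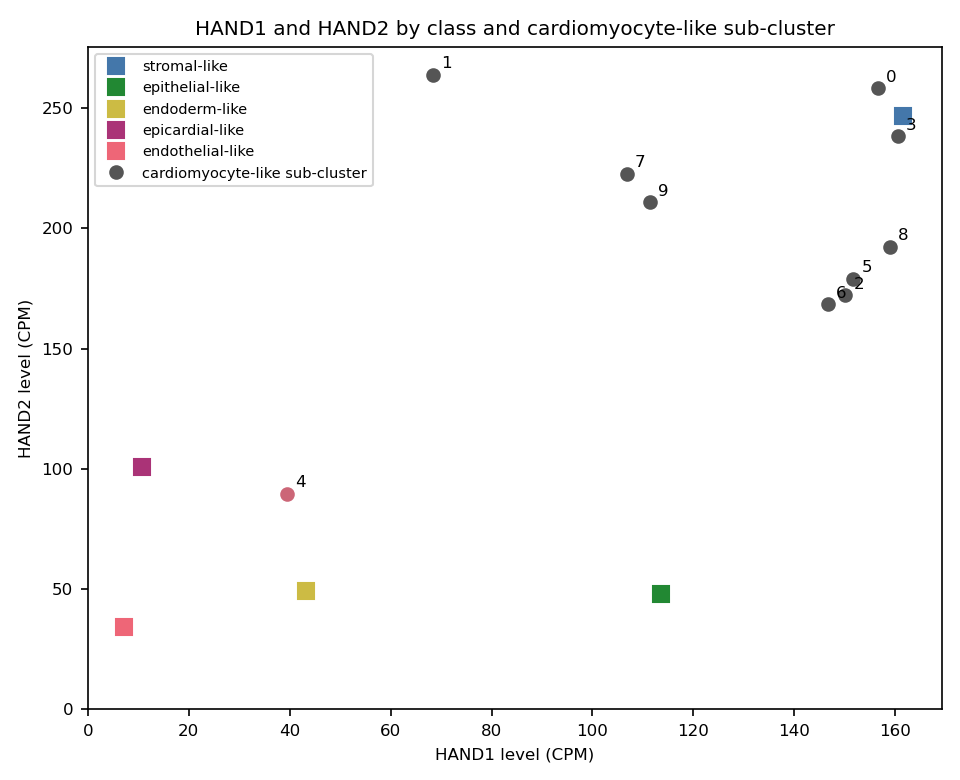
HAND1 level (x axis, CPM) against HAND2 level (y axis, CPM), with squares for the named classes and circles for the 10 cardiomyocyte-like sub-clusters. Sub-cluster 1 combines 68.4 CPM of HAND1 with 264 CPM of HAND2, epithelial-like cells combine 114 CPM with 47.8 CPM, and sub-cluster 4 is low for both.

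Levels in cardiomyocyte-like cells also differed between hashtags, which are given as unassigned samples. HAND1 was at 48.9 CPM in Hashtag1 and 54.3 CPM in Hashtag2, with a median of 132 CPM over the 13 hashtags and a highest value of 175 CPM in Hashtag10. The next lowest HAND1 levels were 65.7 CPM in Hashtag15 and 95.1 CPM in Hashtag14. HAND2 was lowest in Hashtag1 and Hashtag2, at 121 CPM and 126 CPM, with a median of 223 CPM and a highest value of 246 CPM in Hashtag15. Hashtag1 and Hashtag2 had the highest MEF2A levels, 239 CPM and 254 CPM, against a lowest of 178 CPM and a median of 194 CPM, and the lowest HOPX levels, 2.96 CPM and 2.63 CPM. They also held fewer cardiomyocyte-like cells, 30.2% and 49.2% of their cells, than the other 11 hashtags, which held 69.8% or more. The part of that difference in these levels was not tested. Sub-cluster 4 made up 51.7% and 62.8% of their cardiomyocyte-like cells, against 30.3% in Hashtag7 and 8.06% or less elsewhere. In the cardiomyocyte-like cells outside sub-cluster 4, HAND1 stood at 74.3 CPM in Hashtag1 and 92.7 CPM in Hashtag2. It was as low there in Hashtag15 (66.2 CPM) and Hashtag14 (96.8 CPM), where sub-cluster 4 made up 1.12% and 2.54% of the cardiomyocyte-like cells, while the 9 other hashtags had 124 to 181 CPM.

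Hashtag14 and Hashtag15 had the most MYOCD in cardiomyocyte-like cells, 159 CPM and 187 CPM, against a median of 117 CPM and a lowest value of 68.8 CPM in Hashtag6. Of their cardiomyocyte-like cells 31.9% and 53.3% were NR2F2-positive, and 6.90% and 3.82% were HEY2-positive, where the other 11 hashtags had at least 35.7% HEY2-positive cells. NKX2-5 ran from 413 CPM in Hashtag10 to 846 CPM in Hashtag7, GATA6 from 71.7 CPM in Hashtag10 to 168 CPM in Hashtag14, and GATA4 from 72.3 CPM in Hashtag12 to 125 CPM in Hashtag7. Hashtag7 was also the highest for MEF2C, at 140.5 CPM against a median of 90.7 CPM. MEF2A varied least between hashtags, 1.43-fold from lowest to highest, and HOPX most, 7.62-fold.

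**Figure D5:**
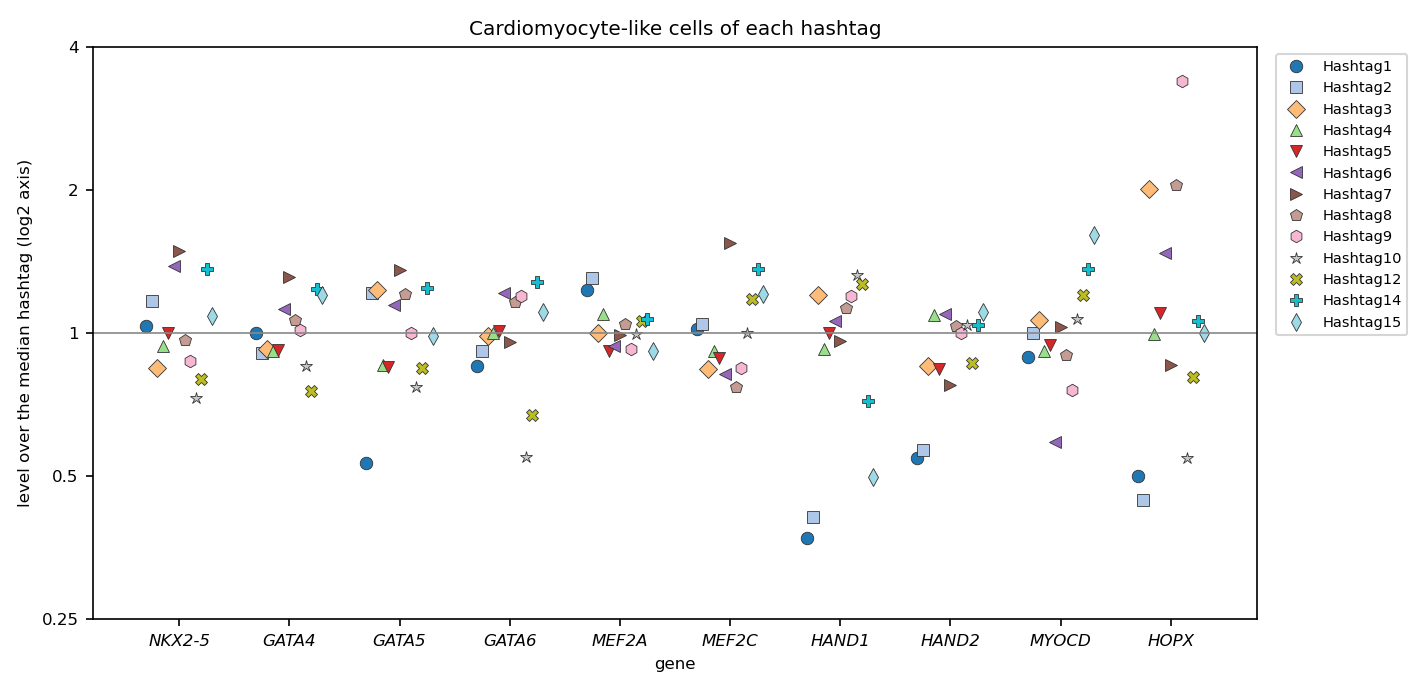
Level of each gene in the cardiomyocyte-like cells of each of the 13 hashtags, divided by the median hashtag (log2 axis); each point is 1 hashtag. HAND1 falls furthest below its median in Hashtag1 and Hashtag2, and HOPX shows the widest spread.

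Did single cells hold the factors together? In cells thinned to 3000 UMIs, cardiomyocyte-like cells held UMIs of a median of 3 of the 10 genes, and 64.4% held at least 3, against 39.6% of stromal-like, 25.8% of endothelial-like, 21.9% of epicardial-like, 8.98% of endoderm-like and 3.97% of epithelial-like cells. Pairs of members were found in the same cell about as often as independent detection would give. MEF2C and MYOCD were found together 1.13 times as often as that, GATA5 and HAND1 1.20 times and GATA6 and HOPX 1.26 times (131 cells against 104 if independent), while MEF2A and HAND1 (0.916 times) and MEF2C and HOPX (0.736 times, 54 cells against 73.3) were found together less often than that. In sparse counts such small departures are given as descriptions only.

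Across the 15 groups of cells (5 other classes and 10 sub-clusters), the levels of some members were correlated. As a description, with groups that share 1 library, Pearson's r of log2(CPM + 1) was 0.92 for GATA4 and GATA6, 0.90 for NKX2-5 and MYOCD, 0.79 for MEF2C and HOPX and 0.69 for HAND1 and HAND2. Without the 68 endothelial-like cells (14 groups) these values were 0.91, 0.90, 0.54 and 0.51, in the same order, and among the sub-clusters MEF2C was highest in sub-cluster 3, where HOPX was lowest. Among 10707 protein-coding genes, the one most like NKX2-5 was COQ10A (0.98), followed by CACNB1, a calcium channel subunit gene (0.97). Most like MYOCD were PSD3 (0.98), the sarcomere organiser FHOD3 (0.98) and the M-band gene MYOM1 (0.98), of which MYOM1 is also a listed target. Most like GATA4 were TECRL (0.93), which was among the clustering genes, and the T-box factor TBX5 (0.92), and most like GATA6 were ALDH3A2 (0.92) and GATA4 itself. PWWP3B (0.97) and NFIC (0.94) were most like MEF2A, BLCAP (0.93) and TP53INP2 (0.92) like MEF2C, SLC2A8 (0.90) and CIB2 (0.89) like HAND1, and PPP1R14A (0.95) and BMP5 (0.91) like HAND2. TRAFD1 (0.87) and SWI5 (0.86) were most like GATA5, and CHIC2 (0.88) and COL4A2 (0.88), a basement membrane collagen gene, were most like HOPX.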

How the data were processed

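The deposited matrix holds raw UMI counts of genes and hashtags per barcode, made by the authors with Cell Ranger 4.0.0, per the file headers, on hg38, per the submitters' processing notes. For annotation release, strand setting and cell-calling rule, the sources used here state nothing. Of 24038 barcodes, 21623 had at least 500 genes and 1000 UMIs and at most 25% mitochondrial UMIs, and 866 doublets (4.00%, where 17.3% were expected at this loading) were removed with Scrublet in scanpy 1.11.5, leaving 20757 cells of 1000 to 115854 UMIs. Genes and hashtags are rows of the same deposited matrix, so the 20757 barcodes are common to both libraries by its layout.

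Cells were clustered without the 10 genes and the related factors (2000 variable genes, 30 components, 15 neighbours, leidenalg 0.10.2, resolution 0.6, seed 0) and classes were named from 14 marker lists. A hashtag was given to a cell with at least 20 hashtag UMIs, 70% of them from 1 hashtag, and within-hashtag values needed 20 cells on each side. Counts were summed per group and divided by the group's UMIs. Poisson intervals, conditional binomial intervals for ratios and Clopper-Pearson intervals for shares (95%) were computed with scipy 1.17.1 and cover counting error only. A gene was measured with at least 10 CPM and 10 counts on the higher side and called from 1.5-fold. TMM factors came from edgeR 4.0.16. The ratio calculation was tested on simulated data.

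The 10 genes and all gene lists were chosen with earlier results of these data known. The rule for other named genes was up to 4 per list and comparison by ratio, genes that named a class or gate, and 3 per member by correlation over 15 groups. Alternatives were TMM, a 2-fold threshold, no minimum level, cells with 1 hashtag only, leaving out the most frequent hashtag, no cell filter, a strict filter (1000 genes, 2000 UMIs, 15%), doublets kept, resolution 1.0 and gates in cells thinned to 6000 UMIs.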

Additional observations from a re-analysis of the deposited data

Results flagged for a closer look

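The cluster of 163 cells that the marker lists did not name, led by CRHBP and HOXB1, entered no comparison, and 2 of the 10 genes were above every cardiomyocyte-like sub-cluster in it, where 6.75% of 9842 measured genes were (intervals not overlapping). The heart muscle markers summed to 34508 CPM in this cluster, against 43053 CPM in cardiomyocyte-like cells. The cluster was thus unnamed but rich in heart muscle markers. NKX2-5 stood at 1075 CPM (1022 to 1130) in the unnamed cluster, against 856 CPM in the highest sub-cluster. MEF2C stood at 142 CPM (124 to 163), against 118 CPM in the highest sub-cluster. HAND1 was at 66.1 CPM, HAND2 at 154 CPM and HOPX had 2 counts in the cluster. Of its 82 cells with a single hashtag, 39 carried Hashtag7.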

How the results depend on the processing

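No paired analysis was possible because the series has 1 pool with no replicates; ratios within hashtags were computed as descriptions, since hashtags are unassigned samples, and nothing could be left out but a hashtag. Of the ratios recomputed under the alternatives, 606 stayed within the counting interval of the main value, 268 moved beyond it and 0 called ratios changed direction. The 606 include every ratio under the 2-fold threshold and under no minimum level. Those 2 settings change calls but not ratios, so these entries could not move and say nothing on stability. With TMM scaling the members higher in cardiomyocyte-like cells than in all other classes numbered 7, against 4. Without a cell filter 2 members were higher in stromal-like cells, MEF2C (1.53) being added. GATA5 was no longer counted as higher in epicardial-like cells (0 members) with TMM scaling, a 2-fold threshold, cells with 1 hashtag only or doublets kept. In SHOX2-positive cells 2 members were lower with TMM scaling or the thinned gate (NKX2-5 and HAND1), 1 (HAND1) with 1 hashtag only, without a cell filter or with the strict filter, and 2 were higher (MEF2C and MYOCD) with the thinned gate. In NR2F2-positive cells 1 member was higher, HOPX with 1 hashtag only, without Hashtag15, without a cell filter, with the strict filter or at resolution 1.0, and MYOCD (1.80) with the thinned gate, and 1 was lower (HAND1) with 1 hashtag only and the thinned gate (0.462). The causes were not tested. With doublets kept, the epicardial-like ratios were 0.286 for NKX2-5 and 0.323 for HAND1, against 0.0484 and 0.0813. With 1 hashtag only, the endoderm-like ratios were 0.0823 for HAND1 and 0.0879 for HAND2, against 0.326 and 0.242. HOPX in endothelial-like cells stayed between 20.1-fold and 24.3-fold and MEF2C between 5.44-fold and 6.87-fold higher under the alternatives run. The 68 endothelial-like cells and the low HOPX level outside them limit what depth can show.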
